A study of Homo sapiens with 12 samples.

Results

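The receptors for tumour necrosis factor (TNF) and the MYD88 adaptor, with the proteins that carry their signals, were followed as 9 mRNAs in wild-type and FMR1-KO cells of SH-SY5Y, a human neuroblastoma cell line. The genes are TNFRSF1A, TNFRSF1B, TRADD, RIPK1, TRAF2, MYD88, IRAK1, IRAK4 and TRAF6, and all 9 were found by symbol among the 59087 features of the deposited count table. They were chosen by their CPM in these libraries, because TNFRSF1A and MYD88 stood higher in the knockout, so knockout against wild-type values of the 9 genes are a description and carry no test. Wild-type cells were set against 3 FMR1-KO lines, made independently and numbered 1, 2 and 3. Each was kept for 2 weeks in heavy or light SILAC medium, which differ in the isotopes of their lysine and arginine. The 4 groups were wild type in heavy medium, wild type in light medium, FMR1-KO in heavy medium and FMR1-KO in light medium, with 3 libraries each and 12 in all. A knockout library is 1 line in 1 medium. The labels give wild-type libraries a number only, so the spread between them, and the p-values that rest on it, may be technical in part. The product of FMR1, FMRP, binds mRNAs and regulates their translation. Every knockout library comes from a derived line, so the knockout and the derivation of a line cannot be told apart. In bulk RNA of this kind, more cells with an mRNA and more of it per cell cannot be told apart either.

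TNFRSF1A and TNFRSF1B are the cell-surface receptors for TNF. Ligand-bound TNFRSF1A recruits the adaptor TRADD, the kinase RIPK1 and the adaptor TRAF2, and signals to NF-kappaB and to stress-activated kinases or, where that arm is blocked, to cell death. MYD88 is the adaptor of interleukin-1 receptors and of most Toll-like receptors. It recruits the kinases IRAK4 and IRAK1, which act through the ubiquitin ligase TRAF6 on the same NF-kappaB kinases. Neuroblastoma cells derive from the sympathetic nerve lineage, and the pathways are best known from immune cells.

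The sequences before the start sites of TNFRSF1A and MYD88 are shown because these were the members whose levels set all knockout libraries apart. Both come from RefSeq on GRCh38.p14 and read 5′ to 3′ along the gene. The TNFRSF1A stretch is chr12:6342115-6342326, minus strand, the 212 bases that end 38 bases before the RefSeq start, and capitals mark a CCAAT box read on the opposite strand.
TNFRSF1A: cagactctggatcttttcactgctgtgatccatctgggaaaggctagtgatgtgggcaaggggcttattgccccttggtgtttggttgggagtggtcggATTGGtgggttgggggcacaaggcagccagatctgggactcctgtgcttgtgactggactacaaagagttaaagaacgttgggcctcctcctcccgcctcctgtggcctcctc
The MYD88 stretch is chr3:38138590-38138619, plus strand, 30 bases that end 41 bases before the RefSeq start and lie inside the longer gene span of GENCODE. Capitals mark a match to the core of the interferon-stimulated response element, GAAA, then 2 bases of any kind, then GAAA.
MYD88: gcgcttctcgGAAAGCGAAAgccggcgggg
RefSeq promoters were matched for 7 members, while TRADD and RIPK1 are named only. Both strands of the 250 bases before the start were searched for GGGCGG (the GC box), CCAAT (the CCAAT box), TATAAA (the TATA box), TGANTCA (the AP-1 site), the interferon-stimulated core, CCGGAAG (the ETS core) and the NF-kappaB consensus. TNFRSF1A held 1 CCAAT box and no other match. It had 4 CpG, the fewest of the 7, where 29.3% of the 35116 RefSeq promoters have fewer and the median is 11. MYD88 held 19 CpG, 4 GC boxes and the interferon-stimulated core. The other 5 members held 22 to 43 CpG and at least 1 GC box each, so that a GC box stood in 6 of the 7. TNFRSF1B also held the interferon-stimulated core, TRAF2 held 2 CCAAT boxes, IRAK4 the 1 match to the ETS core and IRAK1 the 1 match to the NF-kappaB consensus. Over all promoters, 42.6% held a GC box, 32% a CCAAT box, 10.7% a TATA box, 6.57% an AP-1 site, 3.02% the interferon-stimulated core, 8.52% the ETS core and 9.96% the NF-kappaB consensus. A match describes letters in this window, not a bound site.

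Library totals ran from 25935152 to 40257027 counts, and levels are given as CPM, read counts scaled to a common library size with TMM factors. FMR1, the targeted gene, lay between 35.9 and 42 CPM in wild type and between 7.19 and 22.4 CPM in knockout. All 6 knockout libraries were lower than all wild-type libraries, and the highest of them was line 1 in heavy medium. Sympathetic markers summed to 6288 to 6898 CPM in wild type against 4776 to 6283 CPM in knockout, and DBH and GATA3, 2 of the 9 on that list, were lower past the threshold, though not with no filter on low counts. The immune cell genes PTPRC, AIF1 and TYROBP, which would mark macrophages or microglia, were at 0 in all libraries, and that list summed to at most 0.89 CPM in wild type against 1.34 CPM in knockout. Endothelial genes summed to at most 0.226 CPM.

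TNFRSF1A, the main TNF receptor of most cell types, was close to absent in wild type and present in every knockout line. The gene (ENSG00000067182.7) lies on chromosome 12, 6328757 to 6342114, minus strand, in GENCODE release 29 on GRCh38, as do all positions given here. Wild-type libraries 1, 2 and 3 had read counts of 1, 0 and 1 in heavy medium and in light medium 0, 1 and 1. The knockout lines 1, 2 and 3 had read counts of 344, 480 and 63 in heavy medium and in light medium 668, 376 and 76. In CPM the knockout values were 10.0, 13.5 and 2.11 in heavy medium and in light medium 18.9, 14.5 and 2.02. Lines 1 and 2 were high in both media and line 3 low in both, and no knockout library came near the wild-type range. Every wild-type library was under the 3 counts that a count of 0 allows, which are 0.0741 to 0.101 CPM there. Pooled, 4 wild-type counts gave 0.0202 CPM (exact Poisson 95% interval 0.00551 to 0.0518). The pooled ratio of knockout to wild type was 500 (exact 95% interval 195 to 1837). It was 718 (279 to 2639) in line 1, 690 (268 to 2538) in line 2 and 102 (38.9 to 379) in line 3. These intervals cover counting error only. The gene entered the test through its knockout libraries alone, since it would not pass the filter on low counts in wild type.

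The knockout lines differed from each other in TNFRSF1A, a difference that the choice of genes did not use. Line 1 was above line 3 by 2.78 log2 units (SE 0.211, edgeR adjusted p = 1.48e-07) and line 2 above line 3 by 2.78 (SE 0.212, edgeR adjusted p = 5.27e-08). Lines 1 and 2 differed by -0.01 (SE 0.174, edgeR adjusted p = 0.994). Each line enters with 2 libraries, 1 per medium. With the 6 knockout libraries alone, adjusted p was 0.000971 for line 1 against line 3 and 0.000311 for line 2 against line 3.

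TNFRSF1B, the other TNF receptor, which lacks a death domain, was low everywhere. The gene (ENSG00000028137.18; chromosome 1, 12167003 to 12209228, plus strand) held between 13 and 25 counts in a library. Wild-type values ran from 0.417 to 0.618 CPM with a median of 0.561, and knockout values were 0.378, 0.367 and 0.803 CPM in heavy and 0.509, 0.695 and 0.666 CPM in light medium for lines 1, 2 and 3. The groups overlapped, and the fitted change of 0.06 on the log2 scale was smaller than its SE of 0.226. Line 3 had the higher mean, 0.734 CPM, against 0.443 in line 1 and 0.531 in line 2, and neither difference passed the test (edgeR adjusted p = 0.222 and 0.340). Per kilobase of exon, the ratio of TNFRSF1A to TNFRSF1B levels was 0.0346 in wild type. It was 30.6 in line 1, 24.9 in line 2 and 2.65 in line 3, so TNFRSF1A was the more abundant receptor mRNA in each knockout line.

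**Figure D1:**
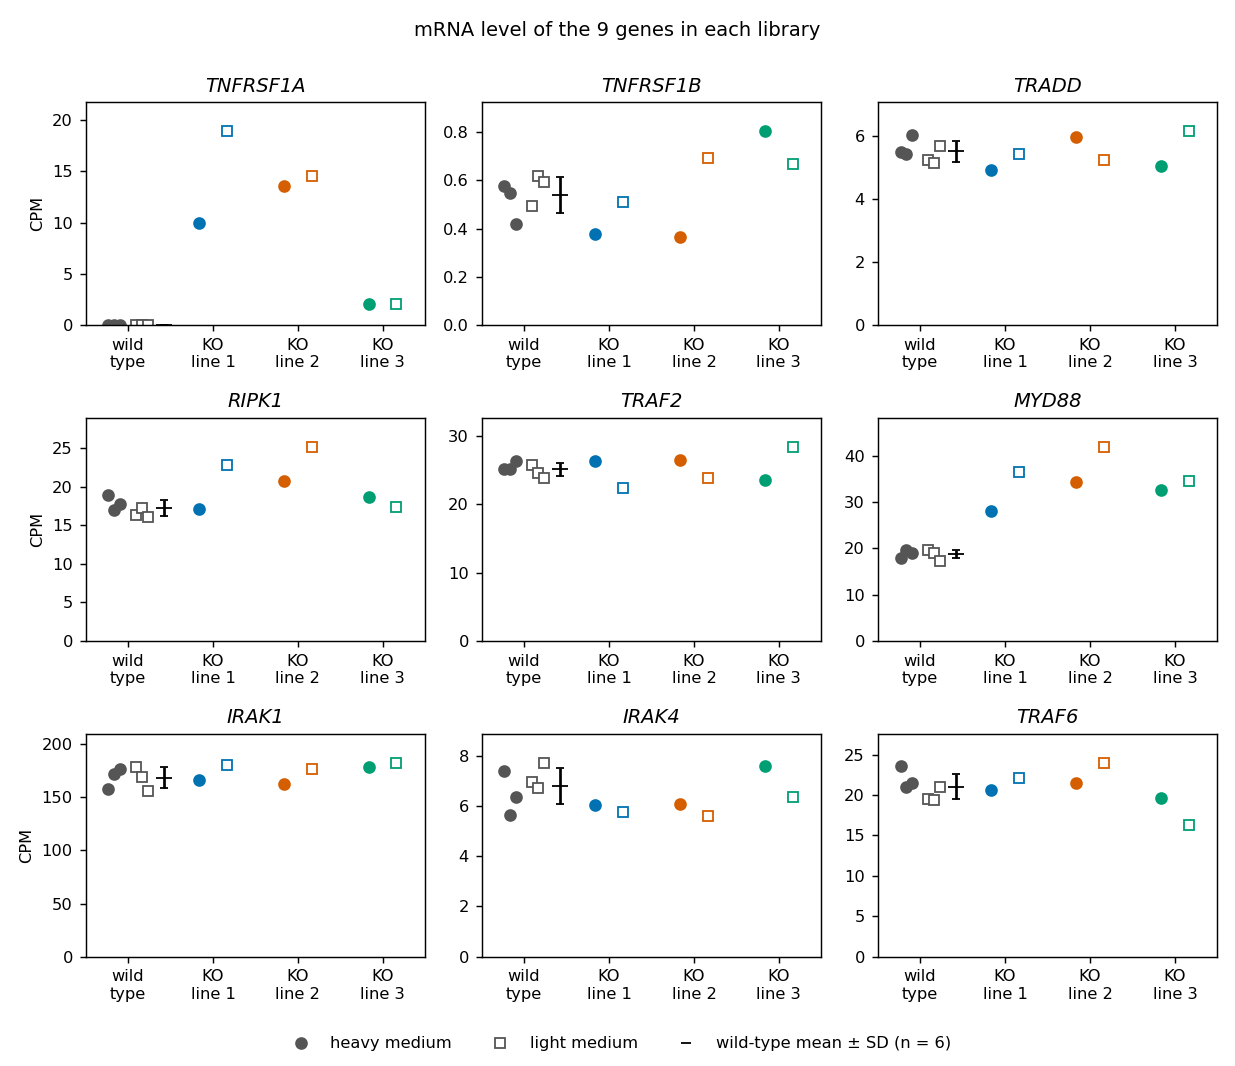
CPM (vertical axis, from 0) of the 9 genes in each of the 12 libraries, by wild type and knockout line; filled circles are heavy medium, open squares light medium, and the bar is the wild-type mean ± SD (n = 6). TNFRSF1A is near 0 in wild type and between 2.02 and 18.9 CPM in knockout, MYD88 lies higher in all 6 knockout libraries, and the other 7 genes overlap between the groups.

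The mRNAs of TRADD, TRAF2 and RIPK1, whose proteins TNFRSF1A recruits first, were present in wild type. TRADD, the death-domain adaptor (ENSG00000102871.15; chromosome 16, 67154180 to 67160298, minus strand), ran from 5.14 to 6.03 CPM in wild type and from 4.94 to 6.15 CPM in knockout. The wild-type range lay within the knockout range, with a fitted change of -0.01 on the log2 scale (SE 0.0866). It shares 126 exon bases with FBXL8 on the opposite strand, a gene at 1.48 to 3.05 CPM over all libraries, and whether the counting used strand is not stated in the sources read for these data. TRAF2, which brings ubiquitin ligases to the receptor (ENSG00000127191.17; chromosome 9, 136881912 to 136926607, plus strand), ran from 23.8 to 26.4 CPM in wild type and from 22.5 to 28.4 CPM in knockout. Its highest and lowest knockout libraries, line 3 and line 1 in light medium, lay on both sides of the wild-type range.

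RIPK1, the kinase that steers TNFRSF1A signals to survival or death (ENSG00000137275.13; chromosome 6, 3063991 to 3115187, plus strand), stood between 16.1 and 19 CPM in wild type. Lines 1, 2 and 3 had 17.1, 20.7 and 18.7 CPM in heavy medium and in light medium 22.8, 25.1 and 17.4 CPM. Both line 2 libraries and line 1 in light medium were above all wild-type libraries, and the other 3 were within the wild-type range. The fitted changes were 0.21 (SE 0.102) in line 1, 0.41 (SE 0.101) in line 2 and 0.07 (SE 0.103) in line 3 on the log2 scale. Line 2 exceeded line 3 by 0.34 (SE 0.126), which did not pass the threshold (edgeR adjusted p = 0.0530). RIPK1 shares 238 exon bases with the antisense gene AL031963.3, which stood at no more than 1.53 CPM.

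MYD88 stood higher in every knockout line than in wild type. The gene (ENSG00000172936.13) lies on chromosome 3, 38138478 to 38143022, plus strand. Wild-type libraries 1, 2 and 3 had 17.9, 19.7 and 19.1 CPM in heavy medium and in light medium 19.6, 18.9 and 17.3 CPM. Lines 1, 2 and 3 had 28.1, 34.2 and 32.5 CPM in heavy medium and in light medium 36.4, 41.8 and 34.6 CPM. The lowest knockout library, line 1 in heavy medium, was well above the highest wild-type library, and line 2 was highest in both media. Means were 18.8 ± 0.944 CPM (SD, n = 6) in wild type and 34.6 ± 4.53 CPM (SD, n = 6) in knockout, a fitted change of 0.88 on the log2 scale (SE 0.0743). By line the change was 0.78 (SE 0.0841), 1.01 (SE 0.0834) and 0.84 (SE 0.084) for lines 1, 2 and 3. Differences among the lines did not pass the threshold: -0.24 (SE 0.104, edgeR adjusted p = 0.291) for line 1 against line 2, -0.06 (SE 0.104, adjusted p = 0.759) for line 1 against line 3 and 0.18 (SE 0.104, adjusted p = 0.234) for line 2 against line 3. Line 3, whose TNFRSF1A was about 7-fold below that of lines 1 and 2 (fitted folds 6.85 and 6.88), had a mean MYD88 level between theirs.

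The kinases and the ligase below MYD88 stayed near their wild-type levels. IRAK4, the first kinase at MYD88 (ENSG00000198001.13; chromosome 12, 43758944 to 43789543, plus strand), ran from 5.64 to 7.7 CPM in wild type. It had 6.05, 6.06 and 7.59 CPM in heavy and 5.74, 5.6 and 6.34 CPM in light medium for lines 1, 2 and 3, and only line 2 in light medium was outside the wild-type range, just below it. IRAK1, the kinase that IRAK4 activates (ENSG00000184216.13; chromosome X, 154010500 to 154019980, minus strand), ran from 156 to 178 CPM in wild type and from 163 to 182 CPM in knockout. The fitted change of IRAK1 was 0.05 on the log2 scale (SE 0.0461).

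TRAF6, the ubiquitin ligase that takes the signal from the IRAK kinases (ENSG00000175104.14; chromosome 11, 36487027 to 36510272, minus strand), ran from 19.4 to 23.6 CPM in wild type. Lines 1, 2 and 3 had 20.6, 21.5 and 19.6 CPM in heavy medium and in light medium 22.1, 24 and 16.3 CPM. Line 2 in light medium was the highest of all 12 libraries and line 3 in light medium the lowest. Line 2 was above line 3 by 0.34 log2 units (SE 0.109, edgeR adjusted p = 0.0272). The call was lost with the 6 knockout libraries alone (adjusted p = 0.0977), without line 2 in light medium (0.304) and without line 3 in light medium (0.254). Line 1 against line 3 was 0.25 (SE 0.109, adjusted p = 0.144).

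**Figure D2:**
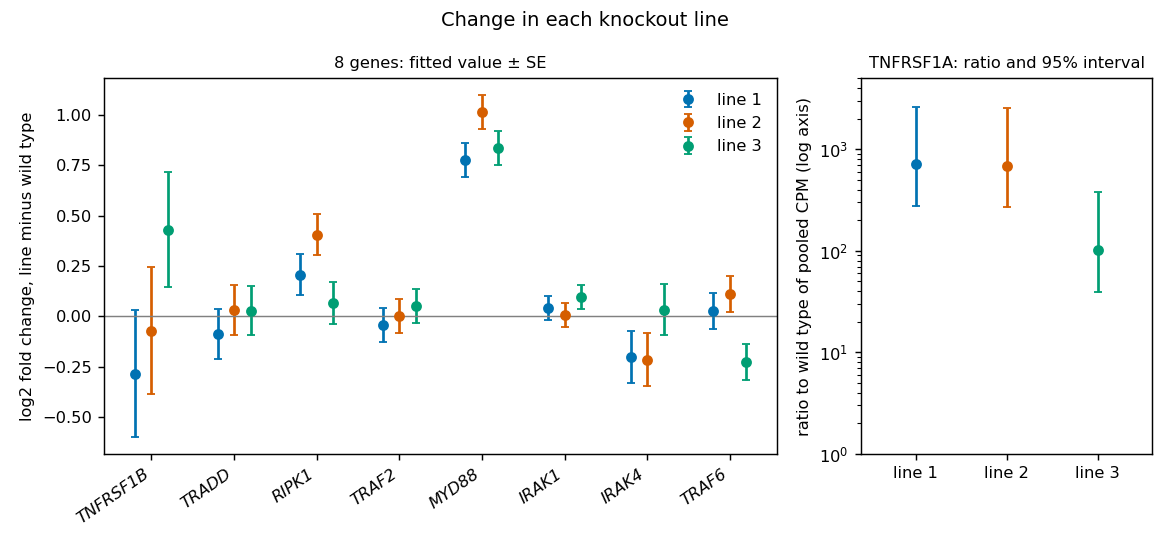
Left, fitted log2 fold change against wild type (vertical axis) of 8 genes in knockout lines 1, 2 and 3, with bars of ± SE; right, ratio of pooled CPM to wild type for TNFRSF1A on a log axis, with exact 95% counting intervals. MYD88 lies between 0.78 and 1.01 in the 3 lines, and the TNFRSF1A ratio is 718 and 690 in lines 1 and 2 and 102 in line 3.

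Of the 9 genes, TNFRSF1A and MYD88 had all 6 knockout libraries above all 6 wild-type libraries, as did 6.54% of the 16704 genes tested. All 6 were below for 0 members, and for 3.99% of genes tested. The choice was made on those 2 genes, so nothing is read from these counts. The median change of the 9 was 0.05 on the log2 scale, against 0.003 over all genes tested, and the 7 besides TNFRSF1A and MYD88 lay between -0.12 and 0.23. Among lines, 0 of 9 passed for line 1 against line 2 (1 gene, MYD88, at unadjusted p under 0.05, and 0 in DESeq2), 1 for line 1 against line 3 and 2 for line 2 against line 3. The shares of all genes tested were 2.74%, 11.9% and 27.4%.

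Ordered by level per kilobase of exon in wild type, IRAK1 stood first at 42.1 ± 2.4 CPM per kb (SD, n = 6), followed by TRAF2 at 6.86 ± 0.245. MYD88 at 4.7 ± 0.237, TRAF6 at 4.32 ± 0.317 and RIPK1 at 4.07 ± 0.244 came next, and neighbours among these 3 had ranges that overlapped. TRADD at 2.15 ± 0.125, IRAK4 at 1.21 ± 0.13, TNFRSF1B at 0.143 ± 0.0196 and TNFRSF1A at 0.00496 ± 0.00393 closed the order without overlap between neighbours. In knockout MYD88 moved to the second place at 8.68 ± 1.13 CPM per kb, its range overlapping that of TRAF2. By the mean over all knockout libraries, TNFRSF1A moved from the last place to the sixth at 2.54 ± 1.72. Its range ran from 0.505 in line 3 to 4.72 in line 1 and overlapped those of RIPK1, TRAF6, TRADD and IRAK4. The sixth place did not hold in line 3, where its mean of 0.516 was below the knockout range of IRAK4 (0.994 to 1.35).

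**Figure D3:**
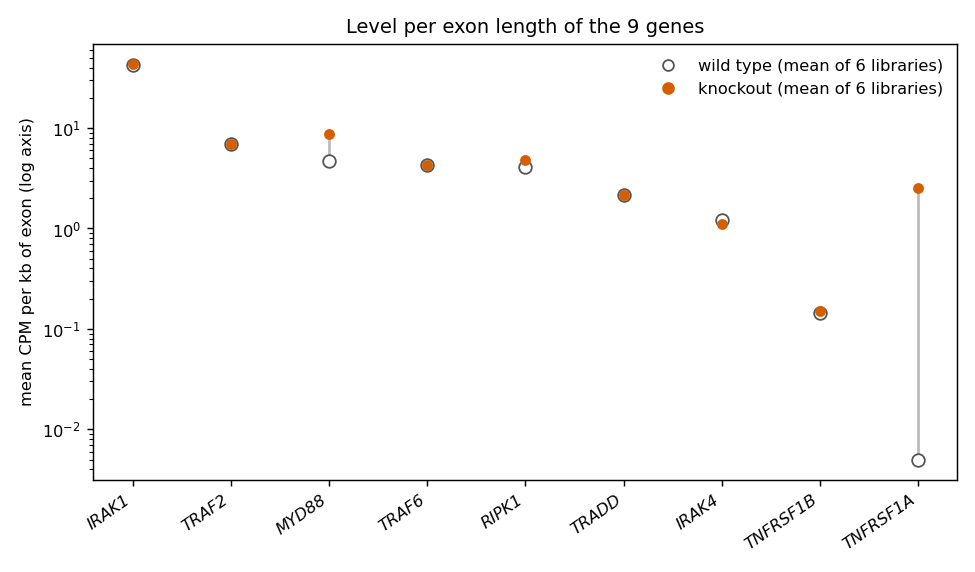
Mean CPM per kilobase of exon (vertical log axis) of the 9 genes in wild type (open circles, 6 libraries) and knockout (filled circles, 6 libraries), ordered by the wild-type level. TNFRSF1A goes from 0.00496 to 2.54 and MYD88 from 4.7 to 8.68, while IRAK1 stays the most abundant at 42.1 and 43.6.

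Heavy and light medium were compared because medium played no part in choosing the genes. No member passed in heavy against light medium over all libraries (0 of 9; smallest edgeR adjusted p = 0.999), in the wild-type libraries (0 of 8, without TNFRSF1A, which was too low to test; 0.978) or in the knockout libraries (0 of 9; 1.0). The interaction of genotype and medium passed for 0 of 9 as well (smallest adjusted p = 1.0). At an unadjusted p under 0.05 the count was 0 members in each of the 4 comparisons, and DESeq2 also called 0. Of all genes tested, 0% passed in the first, 0.00631% in wild type, 0% in knockout and 0% for the interaction. The knockout comparison had no term for line, although each line was kept in both media. Differences between lines therefore entered its error, as for TNFRSF1A (SE 0.958), and a small shift within lines could be missed. With the replicate number, which is the line in knockout, as a block, 0 genes passed as well. The knockout p-values given here are from the fit without that block. MYD88 in knockout was lower in heavy than in light medium in all 3 lines, at -0.25 log2 units (SE 0.111, edgeR unadjusted p = 0.0590, adjusted p = 1.0), and its interaction, the knockout change in heavy minus that in light medium, was -0.27 (SE 0.136). The interaction of TNFRSF1A had an SE of 4.42 and carries no information.

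Beyond the 9 genes, 155 others of these pathways were listed in 8 lists, of which 154 were in the table and 84 were tested. In knockout against wild type 13 of the 84 were higher (15.5%) and 7 lower (8.33%), beside 15% and 9.78% of all genes tested (edgeR, adjusted p under 0.05). Their median was 0.07 on the log2 scale, and 2 were at least 2-fold higher and 0 at least 2-fold lower. The fit counts 6 knockout libraries although they stand for 3 lines. On counts summed per line, each of the 17 genes named from these lists by rule lost its call, with edgeR adjusted p between 0.0531 and 0.171. With 1 library left out at a time, 9 of the 17 kept their call in all 12 fits, and the 8 that did not are given with their genes. Against wild type, 28.2%, 43% and 5% of all genes tested passed in lines 1, 2 and 3 in either direction, which are the shares to set beside the counts by line of each list.

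Of 22 ligands of the TNF and IL-1 families, 15 were under 0.1 CPM in every library, and TNF itself had a mean of 0.011 CPM in wild type against 0.00887 CPM in knockout. TNFSF12, which encodes the ligand TWEAK, rose from 3.55 to 4.84 CPM (log2 0.45, SE 0.113, edgeR adjusted p = 0.0139), the 1 of 5 tested that passed. By line 1, 3 and 0 of the 5 passed in lines 1, 2 and 3. TNFSF4, the next most abundant, was at 1.01 CPM in wild type against 1.225 CPM in knockout. Of 27 other TNF receptor superfamily members, 1 was not analysed here. Of the remaining 26, 10 were under 0.1 CPM in every library and 12 were tested, and the list summed to 123 to 134 CPM in wild type. None passed in edgeR or DESeq2 on all libraries, with TNFRSF21 (log2 0.16, adjusted p = 0.0502), TNFRSF12A (0.47, adjusted p = 0.0590) and TNFRSF19 (0.85, adjusted p = 0.127) at an unadjusted p under 0.05 in edgeR. TNFRSF21 passed where at least 1 CPM in 3 libraries was asked. With 1 library left out, 0 to 3 of the 12 passed as higher, 3 of them without line 3 in light medium. Against wild type, 1, 5 and 2 of the 12 passed in lines 1, 2 and 3, of which 1, 4 and 2 were higher. The shares of all genes tested were 28.2%, 43% and 5%. The most abundant were TNFRSF10B, a receptor for TRAIL, at 58.2 ± 1.92 CPM in wild type against 64.6 ± 9.55 CPM in knockout (SD, n = 6), and RELT at 23.8 and 21.9 CPM. Of 19 Toll-like and IL-1 receptors and their co-receptors, 14 were under 0.1 CPM in every library and 9 at 0 in all. Of the 3 tested, 0 passed in edgeR or DESeq2, with 1, CD14, at an unadjusted p under 0.05. By line 0 of the 3 passed in each. SIGIRR, an inhibitory member of that family, was at 11.4 CPM in wild type against 12.4 CPM in knockout, and CD14, a co-receptor of TLR4, at 0.673 and 0.928 CPM. TLR3, TLR4 and IL1R1 had no counts in any library.

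Partners at the TNF receptor included 5 of 14 tested that were higher and 0 that were lower, with a list median of 0.17. By line 5, 6 and 0 passed in lines 1, 2 and 3. With 1 library left out 2 to 5 were higher, and the count was 2 or 3 without wild type 2 or 3 in heavy medium, any wild type in light medium, line 2 in either medium or line 1 in light medium. CFLAR, which encodes the caspase-8 inhibitor c-FLIP, rose from 6.27 ± 0.704 to 13.1 ± 4.13 CPM (SD, n = 6; log2 1.06, SE 0.198, edgeR adjusted p = 0.0044). It stood at 14, 16.7 and 8.46 CPM in lines 1, 2 and 3, all above the wild-type maximum of 7.34. TRAF5, a relative of TRAF2, rose from 27.8 to 41.4 CPM (log2 0.58, adjusted p = 0.0156), with 44.8, 49 and 30.5 CPM in lines 1, 2 and 3. The deubiquitinase CYLD (log2 0.28, adjusted p = 0.0221) and its receptor adaptor SPATA2 (0.28, adjusted p = 0.0384) rose less. CYLD stood at 30.8, 33.4 and 26.2 CPM in lines 1, 2 and 3, against 24.8 CPM in wild type. SPATA2 stood at 21, 21.3 and 16.2 CPM, against 16 CPM in wild type. Line 3 was within the wild-type range in both media for both genes. The caspase inhibitor XIAP passed at 0.19 (adjusted p = 0.0458), a call lost in 9 of the 12 fits without 1 library (0.0568 to 0.112) on counts summed per line (0.128), with the replicate block (0.0517) and with RLE factors (0.0548). CYLD lost its call without wild type 3 in heavy medium, wild type 2 or 3 in light medium, line 2 in either medium or line 1 in light medium (edgeR adjusted p 0.0502 to 0.0581). SPATA2 lost it without any 1 of the libraries other than the 2 of line 3 (0.0565 to 0.0938). CASP8, the caspase that starts receptor-driven death, was at 0.234 CPM in wild type against 0.16 CPM in knockout, MLKL at 0.149 and 0.167 CPM, and RIPK3 had 0 counts in every library. FADD, the adaptor that binds caspase-8, was at 12.9 and 13.7 CPM.

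Partners downstream of MYD88 went both ways, with 3 of 16 tested higher and 3 lower and a median of -0.03. By line 4, 8 and 0 of the 16 passed in lines 1, 2 and 3, and with 1 library left out 1 to 4 were higher and 1 to 3 lower over all knockout libraries. The transcription factor IRF7 rose from 4.28 to 5.69 CPM (log2 0.41, edgeR adjusted p = 0.0249), and PELI3, a ubiquitin ligase of IRAK kinases, by 0.23 (adjusted p = 0.0182). Its relative PELI1 fell by 0.39 on the log2 scale (adjusted p = 0.0258), and TAB2, the ubiquitin-binding partner of the kinase TAK1, fell by 0.24 (adjusted p = 0.0173). SARM1, an adaptor of the same domain family, passed at 0.13 (adjusted p = 0.0383) and UBE2V1, a cofactor of ubiquitin chain formation, at -0.41 (adjusted p = 0.0488). SARM1 lost its call in 10 of the 12 fits without 1 library (0.0603 to 0.107) and UBE2V1 in 9 (0.0634 to 0.113), and both did on counts summed per line (0.186 and 0.120) and with no filter on low counts (0.0832 and 0.0699). SARM1 also lost it with RLE factors (0.0517) and UBE2V1 with the replicate block (0.0633). PELI1 and PELI3 lost their calls with no filter on low counts. PELI3 also lost its call without line 1 in light medium (edgeR adjusted p = 0.0521), and PELI1 without that library, line 2 in light medium, or wild type 1 in either medium (0.0525 to 0.0592). IRF7 lost it without wild type 1 or 2 in heavy medium, wild type 2 or 3 in light medium, or line 2 in either medium (0.0523 to 0.0680).

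NF-kappaB kinases, subunits and inhibitors included 0 higher and 2 lower of 14 tested, with a median of -0.01. By line 2, 6 and 0 passed, and with 1 library left out 1 to 3 were lower over all knockout libraries. NFKB2, a subunit precursor, fell from 11.8 to 8.97 CPM (log2 -0.40, SE 0.0768, edgeR adjusted p = 0.00386), and IKBKB, a catalytic kinase of the pathway, from 18.6 to 15.1 CPM (log2 -0.30, adjusted p = 0.0264). IKBKB lost its call without wild type 3 in either medium, or wild type 2, line 1 or line 2 in light medium (edgeR adjusted p 0.0517 to 0.0680). RELA was at 92.4 and 97.9 CPM, and NFKBIA, the inhibitor that NF-kappaB induces, at 35.2 and 32.5 CPM, and neither passed. Among 26 NF-kappaB target genes, 13 were under 0.1 CPM in every library and 11 were tested, with 1 higher and 2 lower, and by line 3, 4 and 1 passed. CD44, an adhesion receptor, rose from 0.471 to 1.86 CPM (log2 1.96, SE 0.428, adjusted p = 0.00837), with 3.44 CPM in line 2 against 1.21 and 0.914 in lines 1 and 3. TNFAIP2 fell from 3.98 to 2.8 CPM (log2 -0.50, adjusted p = 0.0116), and the other that was lower was NFKB2, which is on both lists. TNFAIP3, a feedback inhibitor, had means of 0.178 and 0.0734 CPM and was too low to test.

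The JNK and p38 arm had 3 of 13 tested higher and 1 lower, with a median of 0.004. By line 4, 8 and 1 passed, and with 1 library left out 2 to 4 were higher and 0 to 2 lower over all knockout libraries. MAP3K1, a kinase above JNK, rose from 102 to 166 CPM over the 6 knockout libraries (log2 0.70, SE 0.213, edgeR adjusted p = 0.0383), with 198 and 197 CPM in lines 1 and 2 and 103 CPM in line 3. MAPK12 (log2 0.42, adjusted p = 0.016) and MAPK10 (0.31, adjusted p = 0.013), a p38 and a JNK kinase, rose, and MAPK14, the main p38 kinase, fell by 0.15 on the log2 scale (adjusted p = 0.0476). MAP3K1 and MAPK14 lost their calls with no filter on low counts. MAP3K1 also lost its call without any 1 of the libraries other than the 2 of line 3 (edgeR adjusted p 0.0550 to 0.0975), and MAPK14 without any 1 except wild type 1 and line 3, both in light medium (0.0537 to 0.124).

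**Figure D4:**
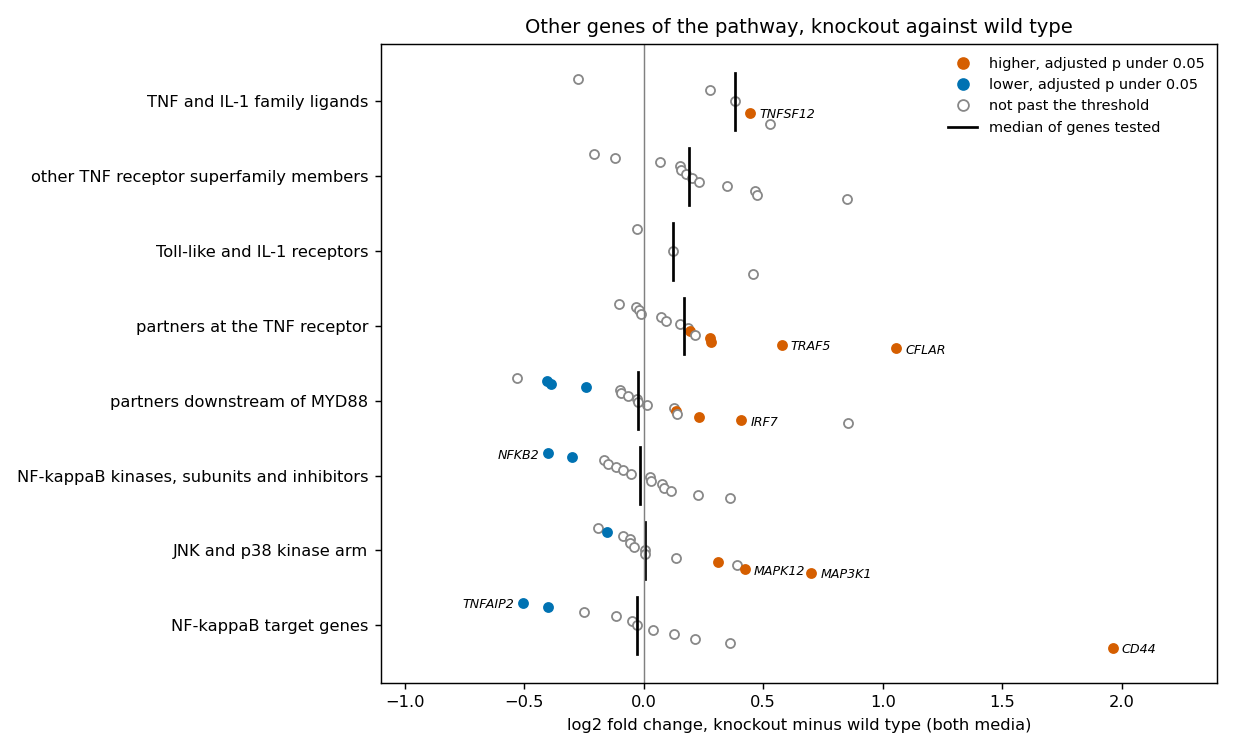
Log2 fold change of knockout against wild type (horizontal axis) for each gene tested on the 8 lists of other pathway genes; filled points passed an adjusted p of 0.05 in edgeR, open points did not, and the vertical bars are list medians. Medians lie between -0.03 and 0.38, and CD44 at 1.96 and CFLAR at 1.06 lie farthest to the right.

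Of the 17 named genes of these lists, 1 differed between lines 1 and 2, 6 between lines 1 and 3 and 9 between lines 2 and 3 (edgeR, adjusted p under 0.05), where the shares of all genes tested were 2.74%, 11.9% and 27.4%. The 17 were picked on these same libraries for passing in knockout against wild type with all 3 line means on 1 side, so their counts are a description. CFLAR was above line 3 by 0.73 in line 1 (SE 0.166, adjusted p = 0.00782) and by 0.98 in line 2 (SE 0.166, adjusted p = 0.000272). MAP3K1 was above line 3 by 0.94 in each (adjusted p = 0.00578 and 0.00245), and TRAF5 by 0.57 and 0.68 (adjusted p = 0.0084 and 0.000982). PELI1 was below line 3 in both, at -0.33 and -0.61 (adjusted p = 0.0333 and 0.000172). CD44 was above both other lines in line 2, with line 1 against line 2 at -1.49 (adjusted p = 0.00384) and line 2 against line 3 at 1.92 (adjusted p = 6.64e-05).

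Some markers of other cell types also differed between knockout and wild type. Schwann and glial markers summed to 2.66 CPM on average in wild type and to 4.89, 5.55 and 2.25 CPM in lines 1, 2 and 3, and 2 of the 6, S100B and ERBB3, passed as higher in knockout, S100B not with no filter on low counts. SOX10 and GFAP, which define these cells, had 0 counts in all libraries. That sum was higher in lines 1 and 2 and not in line 3. The fibroblast list summed to 86.8 to 91.6 CPM in wild type against 60.5 to 76.5 CPM in knockout, nearly all of it PDGFRB, with 2 of 7, PDGFRB and LUM, lower, and DCN and PRRX1 at 0. Epithelial markers summed to 2.1 to 3.13 CPM in wild type against 2.71 to 5.6 CPM in knockout. Of that list only KRT19 passed as higher, from 1.04 to 2.69 CPM. EPCAM lay the other way, at 1.27 CPM in wild type against 1.13 CPM in knockout, and did not pass (edgeR adjusted p = 0.541). CDH1, KRT8 and KRT18 were too low to test. PDGFRB and LUM were lower and KRT19 higher than the wild-type mean in all 6 knockout libraries, those of line 3 included. The part of these shifts in the TNFRSF1A values was not tested.

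Of the 6 nearest neighbours of TNFRSF1A, 5 were measured and 1 was not analysed here. PLEKHG6, 251 bases away on the opposite strand, had means of 0.0139 CPM in wild type against 0.122 CPM in knockout. These rest on 3 and 25 counts, too low to test, and line means were 0.115, 0.25 and 0 CPM in lines 1, 2 and 3. SCNN1A and RN7SL391P had 0 counts in all libraries. ATP5MFP5 held 2 counts in wild type and 1 in knockout. CD9, a tetraspanin 90486 bases away, rose from 2.64 to 5.79 CPM (log2 1.13, SE 0.291, edgeR adjusted p = 0.0175). That call was lost on counts summed per line (0.129) and with no filter on low counts (0.0520). It stood at 6.66, 7.91 and 2.8 CPM in lines 1, 2 and 3, with line 1 above line 3 by 1.25 (adjusted p = 0.000647) and line 2 above line 3 by 1.51 (adjusted p = 3.4e-05). Next to MYD88, ACAA1 was at 25.8 and 26.3 CPM (log2 0.03, adjusted p = 0.833) and OXSR1 at 101 and 94.3 CPM (log2 -0.10, adjusted p = 0.0880). RF00019, a symbol shared by a family of small RNAs, was at 4.83 and 4.13 CPM, and DLEC1, SLC22A13 and AP006193.1 had means under 0.1 CPM.

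The genes whose levels were most like those of TNFRSF1A over the 12 libraries, by Pearson's r of log2(CPM + 0.5) among 13632 genes, were FAM20C, a kinase of the secretory pathway (r = 0.998), NPY, which encodes neuropeptide Y (0.995), and FAR2, a fatty acyl-CoA reductase (0.995). FAM20C went from 0.121 CPM in wild type to 29.8, 37.8 and 3.54 CPM in lines 1, 2 and 3, and NPY from 3.26 to 101, 150 and 22.5 CPM. For MYD88 they were TVP23A (0.987), OAS3, an interferon-induced synthetase (0.981), and ARMCX5-GPRASP2 (0.981), a readthrough gene whose reads overlap those of its parts and whose count is uncertain. OAS3 had 11 CPM in wild type and 25.1, 30.9 and 25 CPM in lines 1, 2 and 3. In all, 855 genes had an r over 0.9 with TNFRSF1A and 305 with MYD88. The libraries fall into wild type and lines, so these values describe a shared step between groups.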

How the data were processed

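Poly(A) RNA of 12 cultures was sequenced with a stranded kit, per the labels' protocols. The authors deposited unnormalized counts, whole numbers of reads for each gene. Per the submitters' processing notes, bcl2fastq 2.19.0, STAR 2.7.0f, GRCh38.p13, featureCounts of Subread 1.6.4, DESeq2 1.22.1 and R 3.5.1 were used; no annotation, strand setting or rule for multi-mapping reads is named in the sources used here. Totals of 25935152 to 40257027 counts set the precision of low genes.

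Tests on the deposited counts used edgeR 4.0.16 (R 4.3.3) with TMM factors, filterByExpr, robust quasi-likelihood F tests and Benjamini-Hochberg adjustment at 0.05 over all 16704 genes tested. SE is the absolute log2 fold change divided by the root of F. Knockout against wild type had medium as a covariate. Lines were compared in a model of line and medium on all 12 libraries. Medium was also compared within each genotype, without a term for line. On simulated counts 100% of 2-fold changes in knockout against wild type and 98% in line 2 against line 3 were recovered, among 16238 and 16271 genes. The simulation took its spread from the wild-type libraries and changed well-counted genes only. Each changed gene had the same fold in every changed library, with no differences between knockout lines. These shares therefore do not give the power of the tests on the real lines. Exon lengths and positions came from GENCODE release 29, where 56414 of 59087 features were found by symbol.

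The members and lists were chosen with earlier results of these data known. Other genes were named by rule: from each list up to 4 genes past 0.05 with the smallest p and 3 line means on 1 side of wild type, TNF, the 2 most abundant ligands and receptors, 3 neighbours on each side of TNFRSF1A and MYD88, and the 3 genes most like each. Further genes (TLR3, TLR4, IL1R1, CASP8, MLKL, RIPK3, FADD, XIAP, SARM1, UBE2V1, RELA, NFKBIA, TNFAIP3, TNFRSF12A, TNFRSF19, TNFRSF21 and marker genes) were named after their values were seen. Line tests of the named list genes were run once, without alternatives. Alternatives for the other results were RLE factors, DESeq2 1.42.0, 2 other filters, the replicate number as a block, counts summed per line, the 6 knockout libraries alone, and each library left out.

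Deviations from group means correlated at 0.133, 0.703 and 0.722 between the 2 media of lines 1, 2 and 3, which the labels pair by line. In wild type the same-numbered correlations were 0.0996, 0.0132 and -0.0968, so those numbers were not taken as pairs. The 0.133 of line 1 was little above the highest of these, so the pairing of its 2 libraries rests on the labels.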

Additional observations from a re-analysis of the deposited data

Results flagged for a closer look

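IRAK4 in line 3 in heavy medium, at 7.59 CPM, stood apart from the other 5 knockout libraries, the 1 such library among 18 groups of member values examined; chance gives about 1 in 20. TNFRSF1A differed between knockout lines, by 2.78 on the log2 scale for line 1 against line 3 (edgeR adjusted p = 1.48e-07) and by 2.78 for line 2 against line 3 (adjusted p = 5.27e-08), with both libraries of the higher line above both of line 3. TRAF6 differed by 0.34 for line 2 against line 3 (adjusted p = 0.0272), also with both libraries of line 2 above both of line 3.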

How the results depend on the processing

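The TNFRSF1A differences of lines 1 and 2 from line 3 kept their call under every alternative run, between 2.31 and 3.17 and between 2.50 and 3.05 on the log2 scale; the exceptions for TRAF6 are given beside its result. MYD88 in knockout against wild type lay between 0.82 and 0.93 with 1 library left out. Values of members, lists and named genes were recomputed. Of these, 1197 were counted as kept, 77 lost a call, 68 moved and 0 were counted as reversed. A change of sign near 0 could count as kept. TNFRSF1B in knockout against wild type went from 0.06 to -0.12 on the log2 scale without line 3 in heavy medium. On counts summed per line alone, 16 values were kept, 17 lost a call and 9 moved. Counts of genes past the threshold in knockout against wild type were 4135, with 272 on counts summed per line, 4484 with the replicate block and 2632 to 5907 with 1 library left out (2732 without line 2 in heavy, 2709 without line 1 in light and 2632 without line 2 in light medium). For lines 1, 2 and 3 against wild type they were 4714, 7180 and 836, with ranges of 1538 to 4926, 4200 to 7456 and 287 to 1269, and 1387 for line 3 without a filter. For lines 1 against 2, 1 against 3 and 2 against 3 they were 458, 1980 and 4585, with 135, 794 and 2945 on the 6 knockout libraries alone, 1069 for lines 1 against 2 without a filter, and ranges of 123 to 1264, 562 to 2747 and 2011 to 4916. Heavy against light medium in wild type gave 1 gene, 9 in DESeq2, 39 without a filter, 13 with the replicate block and 0 to 8 with 1 library left out; the other medium comparisons and the interaction gave 0 throughout, with 531 genes at an unadjusted p under 0.05 over all libraries, 138 in knockout and 149 for the interaction. These unadjusted counts come from fits without the block. In knockout, where the block is the line, it raised the unadjusted count but also gave 0 calls. The block changed no member's call, and of the list genes named it lost MAPK14, XIAP and UBE2V1. A filter of 1 CPM changed no count by over 1.5 times except the TNF receptor superfamily list (TNFRSF21 higher). Where a count moved, the cause was not tested. TNFRSF1A at 4 counts in wild type and TNFRSF1B at 13 to 25 counts a library are limited by depth.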
